A study of Mus musculus with 2 samples.

Results

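The cells described here are mouse hippocampal oligodendrocytes that carried the transcript of Klk6, the secreted serine protease kallikrein-related peptidase 6. They were chosen from the counts of unique molecular identifiers (UMIs, each tagging 1 captured transcript molecule). A cell barcode was taken if it had at least 300 detected genes, at most 10% mitochondrially encoded UMIs, and UMIs of at least 5 of the 8 oligodendrocyte genes Mog, Mag, Mobp, Cldn11, Ermn, Opalin, Mal and Aspa. It could hold UMIs of at most 2 of the 6 genes Cldn5, Flt1, Vtn, Aqp4, Gja1 and C1qa, which mark endothelial cells, mural cells, astrocytes and microglia, and it needed at least 1 Klk6 UMI. This gave 168 Klk6 oligodendrocytes among 11605 cells that passed the quality limits, 72 of 5278 in the Mr1-/- library and 96 of 6327 in the Mr1+/+ library. The 2359 cells that met the same limits with 0 Klk6 UMIs, 935 Mr1-/- and 1424 Mr1+/+, are called the other oligodendrocytes.

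The series consists of 1 droplet single-cell RNA library from Mr1-/- mice and 1 from Mr1+/+ mice, both 7 months old and untreated. Mr1 encodes an MHC class I-like molecule that presents vitamin B-related metabolites to mucosal-associated invariant T cells. Hippocampal tissue was dissociated with a kit meant for primary neurons, and live nucleated cells were sorted as DAPI-negative, Draq5-positive before 5' library preparation. How many mice were pooled, their sex and strain background, and which part of Mr1 is missing were not given in the sources used here. With 1 library per genotype no difference between genotypes has a replicate check, and none was tested; every interval below is a 95% interval for counting error only.

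Oligodendrocytes wrap axons in myelin, a stack of compacted membrane rich in cholesterol and glycolipids that speeds conduction. Mature oligodendrocytes of the mouse brain and spinal cord are not uniform. Cells with Klk6, Hapln2, Anln and Serpinb1a form a mature subtype that is common in spinal cord and other caudal white matter, and cells with Il33 and Ptgds form another that is common in grey matter. The KLK6 protease is secreted by oligodendrocytes and can cleave myelin proteins and activate protease-activated receptors.

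The libraries held 18349132 UMIs in 5347 barcodes (Mr1-/-) and 23244575 UMIs in 6410 barcodes (Mr1+/+). As a check of the labels, Mr1 had 2 UMIs in the kept Mr1-/- cells, 0.110 CPM (counts per 1000000 UMIs), against 138 UMIs and 5.97 CPM in the kept Mr1+/+ cells. Mr1 had 0 UMIs in the Klk6 oligodendrocytes of both libraries, so the genotype of these cells rests on their library. The libraries shared 44 barcodes, among which were 0 Mr1-/- and 1 Mr1+/+ Klk6 oligodendrocytes. The doublet caller Scrublet marked 4 of the 72 Mr1-/- and 5 of the 96 Mr1+/+ Klk6 oligodendrocytes, which were kept. Klk6 oligodendrocytes held a median of 6248 UMIs (Mr1-/-) and 6446 UMIs (Mr1+/+), and the other oligodendrocytes 4170 and 4356, so the Klk6 cells were the deeper ones.

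Klk6 (chromosome 7, 43824499 to 43832030, plus strand, GRCm38) was found almost wholly in oligodendrocytes in both libraries. Outside the oligodendrocytes, 3 of 4271 Mr1-/- cells (0.0702%, median depth 2642 UMIs) and 2 of 4807 Mr1+/+ cells (0.0416%, median depth 2856 UMIs) carried a Klk6 UMI, at a lower depth than the oligodendrocytes; free RNA was not measured. Astrocytes, marked by at least 3 genes of their own and few oligodendrocyte genes, had 0 of 563 Mr1-/- cells with Klk6, which allows a share of cells with a UMI of up to 0.533% (3 counts), and 0 of 1100 Mr1+/+ cells, which allows up to 0.273%. Microglia had 0 of 848 Mr1-/- and 0 of 813 Mr1+/+ cells with Klk6, which allows up to 0.354% and 0.369%, and endothelial cells had 1 of 1618 and 1 of 1521. Among oligodendrocytes the share was 7.15% for Mr1-/- (exact interval 5.64 to 8.92) and 6.32% for Mr1+/+ (5.15 to 7.66), at median depths of 4239 and 4458 UMIs.

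**Figure D1:**
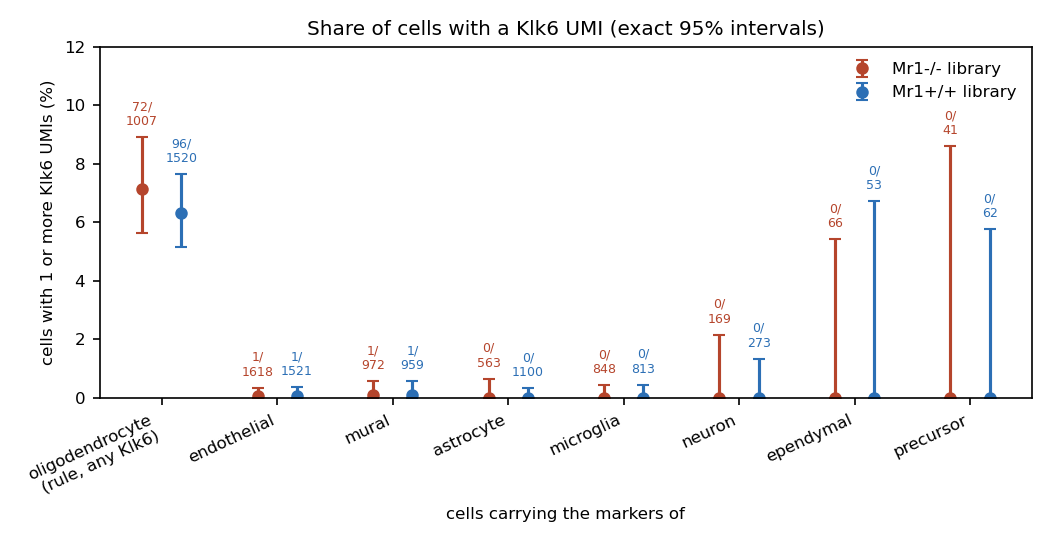
Share of cells with at least 1 Klk6 UMI (%, y axis) in the oligodendrocytes and in 7 classes of cells marked by genes of their own, Mr1-/- left of Mr1+/+. Bars on the points are exact 95% binomial intervals and the counts of cells are printed above them; the oligodendrocytes lie at 7.15% and 6.32%, and no other class has more than 1 cell with a UMI in a library.

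Klk6 was low in most of the cells that carried it. The Mr1-/- cells held 220 Klk6 UMIs, with 35 cells at 1 UMI, 15 at 2, 22 at 3 or more, and a highest cell of 19. The Mr1+/+ cells held 277, with 45 cells at 1 UMI, 13 at 2, 38 at 3 or more, and a highest cell of 15. The limit of 1 UMI is therefore the detection limit, and a cell with little Klk6 RNA can stand among the other oligodendrocytes. In all, 75 Mr1-/- and 98 Mr1+/+ barcodes carried Klk6. Of these, 2 and 2 had UMIs of fewer than 5 of the 8 oligodendrocyte genes, and 1 and 0 had UMIs of more than 2 of the 6 genes of other cells. No Klk6 oligodendrocyte stood at the limit of 5 oligodendrocyte genes, and 35 Mr1-/- and 51 Mr1+/+ cells had UMIs of all 8.

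The label was checked against the other 3 marker genes of the subtype. Hapln2, a link protein of the extracellular matrix at nodes of Ranvier, stood at 747 CPM in Mr1-/- and 691 CPM in Mr1+/+ Klk6 oligodendrocytes, against 393 and 395 CPM in the other oligodendrocytes. Anln, anillin, which is needed for septin assembly in central myelin, stood at 683 and 611 CPM, against 276 and 293 CPM. Serpinb1a, an intracellular inhibitor of neutrophil serine proteases, stood at 394 and 453 CPM, against 232 and 244 CPM. All 3 were higher in the Klk6 cells of both libraries, with ratios of 1.90 and 1.75 for Hapln2, 2.48 and 2.08 for Anln, and 1.70 and 1.86 for Serpinb1a (Mr1-/- library first). UMIs of all 3 were found in 57 of 72 Mr1-/- and 76 of 96 Mr1+/+ Klk6 oligodendrocytes (79.2% in both libraries). Among the other oligodendrocytes the shares were 28.5% and 28.0%. These shares were not taken at equal depth, and the Klk6 cells were the deeper ones. The markers were not restricted to the Klk6 cells, since Hapln2 was detected in 71.2% of Mr1-/- and 69.7% of Mr1+/+ other oligodendrocytes.

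Across the transcriptome, Klk6 oligodendrocytes were set against the other oligodendrocytes of their own library. Because Klk6 defined the groups and the same cells supplied all other genes, these values are a description and no test was made. Of 2917 genes that passed the limits on low values and on RNA from other cell types, 65 (2.23%) were at least 1.5-fold higher in the Klk6 cells in both libraries, and 27 (0.926%) at least 1.5-fold lower, after adding 10 CPM to each level. Within the Mr1-/- library alone the counts were 112 higher (3.84%) and 69 lower (2.37%), and within the Mr1+/+ library 103 higher (3.53%) and 54 lower (1.85%). No gene passed 1.5-fold in opposite directions in the 2 libraries. When median-of-ratios scaling replaced the total of UMIs, 56 genes were higher and 39 lower, so that the higher genes made up 59.0% of the calls in place of 70.7%.

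S100b, a calcium-binding protein of glial cells, had the largest ratio of the 2917 genes, ranked by the library where the ratio was nearer to 1. It stood at 1111 CPM in Mr1-/- and 1010 CPM in Mr1+/+ Klk6 oligodendrocytes, against 136 and 153 CPM in the other oligodendrocytes. The ratios were 8.17 (7.23 to 9.22) for Mr1-/- and 6.62 (5.99 to 7.31) for Mr1+/+ cells, with S100b on chromosome 10, 76253853 to 76261159, plus strand. Hopx, a small homeodomain protein that does not bind DNA itself, stood at 297 and 248 CPM, against 49.0 and 55.0 CPM, 6.07-fold and 4.50-fold higher. S100b and Hopx are also astrocyte genes. In the astrocytes of these libraries S100b stood at 373 CPM, below its level in the Klk6 cells, and Hopx at 455 CPM, above its level there. The astrocyte glutamate transporter genes Slc1a2 and Slc1a3, which the rule did not use, stood at 72.1 and 89.1 CPM in Mr1-/- Klk6 oligodendrocytes, against 49.2 and 68.8 CPM in the other oligodendrocytes. In the Mr1+/+ library they stood at 24.0 and 72.1 CPM, against 85.5 and 77.1 CPM. Of the 7 astrocyte genes listed, these 2 among them, 0 were higher and 4 lower in both libraries by any amount. The part of astrocyte RNA in the levels of S100b and Hopx was not tested.

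Several enzymes and carriers were among the other genes that were highest in Klk6 oligodendrocytes. Enpp6, a choline phosphodiesterase known as a marker of newly formed oligodendrocytes, stood at 250 CPM in Mr1-/- and 225 CPM in Mr1+/+ Klk6 cells, against 56.1 and 51.4 CPM in the other oligodendrocytes. Slc25a27, a mitochondrial carrier of the uncoupling protein family, stood at 176 and 158 CPM, against 44.3 and 38.8 CPM. Mgst3, a microsomal glutathione transferase, stood at 210 and 155 CPM, against 66.6 and 62.4 CPM. These 3 genes were between 2.48-fold and 4.47-fold higher in the Klk6 cells, with the libraries on the same side. Padi2, the peptidylarginine deiminase that citrullinates myelin basic protein, was 2.73-fold and 2.42-fold higher. The membrane transporter Slco3a1 was 2.29-fold and 2.86-fold higher, and Fam131b 2.49-fold and 2.40-fold.

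The remaining genes among the 12 highest encode secreted, lipid-binding or scaffold proteins. Selenop, the selenium carrier selenoprotein P, stood at 1826 CPM in Mr1-/- and 1814 CPM in Mr1+/+ Klk6 oligodendrocytes, against 748 and 710 CPM in the other oligodendrocytes. Plin3, a lipid droplet coat protein, stood at 456 and 372 CPM, against 166 and 162 CPM. Anxa5, which binds phosphatidylserine, stood at 308 and 276 CPM, against 110 and 109 CPM. All 3 were between 2.30-fold and 2.79-fold higher, and Anln, given above, completes the 12. Selenop stood at 1884 CPM in the endothelial cells of these libraries, while Plin3 reached at most 59.4 CPM in any of the 5 marked classes compared. S100b overlaps Dip2a, Hopx overlaps Hopxos, Selenop overlaps Ccdc152 and Fam131b overlaps Clcn1 in the annotation; whether reads were assigned by strand was not given in the sources used here.

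Ptgds, the prostaglandin D2 synthase of glia and leptomeninges, had the lowest ratio by the same ranking. It stood at 5382 CPM in Mr1-/- and 3272 CPM in Mr1+/+ Klk6 oligodendrocytes, against 22890 and 18980 CPM in the other oligodendrocytes, ratios of 0.235 (0.226 to 0.245) and 0.172 (0.165 to 0.180). The remaining Ptgds sat in few cells, since the 5 highest of the 72 Mr1-/- cells held 1001 of 2538 Ptgds UMIs and the 5 highest of the 96 Mr1+/+ cells held 872 of 2179. The median Klk6 cell had 6.55 Ptgds UMIs per 10000 (Mr1-/-) and 4.30 (Mr1+/+), against 198 and 160 in the other oligodendrocytes. Cd9, a tetraspanin found in myelin, stood at 305 and 365 CPM, against 1008 and 957 CPM. Il33, a nuclear alarmin cytokine, stood at 636 and 680 CPM, against 1492 and 1498 CPM. Il33 was thus lower without being lost, with UMIs in 60 of 72 Mr1-/- and 83 of 96 Mr1+/+ Klk6 cells.

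The other 9 of the 12 lowest genes had fewer transcripts. Bfsp2, a beaded filament protein best known from the lens, stood at 42.4 CPM in Mr1-/- and 45.0 CPM in Mr1+/+ Klk6 cells, against 113 and 119 CPM in the other oligodendrocytes. Phactr3, a regulator of phosphatase 1 and actin, stood at 38.2 and 51.1 CPM, against 95.9 and 139 CPM, and Sema6d, a transmembrane semaphorin, at 42.4 and 24.0 CPM, against 88.8 and 88.5 CPM. Prickle1, a planar polarity protein, the kinase Ick, Plekha1, a phosphoinositide-binding adaptor, and Hebp1, a haem-binding protein, had ratios between 0.265 and 0.485 over the libraries. The long non-coding RNA C030029H02Rik had ratios of 0.455 and 0.392, and Gm42756, annotated antisense to Fbxw15, 0.25 and 0.40. All 9 were lower in the Klk6 cells of both libraries with intervals below 1, on between 10 and 79 UMIs in a library. They were picked by these ratios, so the intervals are no separate check.

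**Figure D2:**
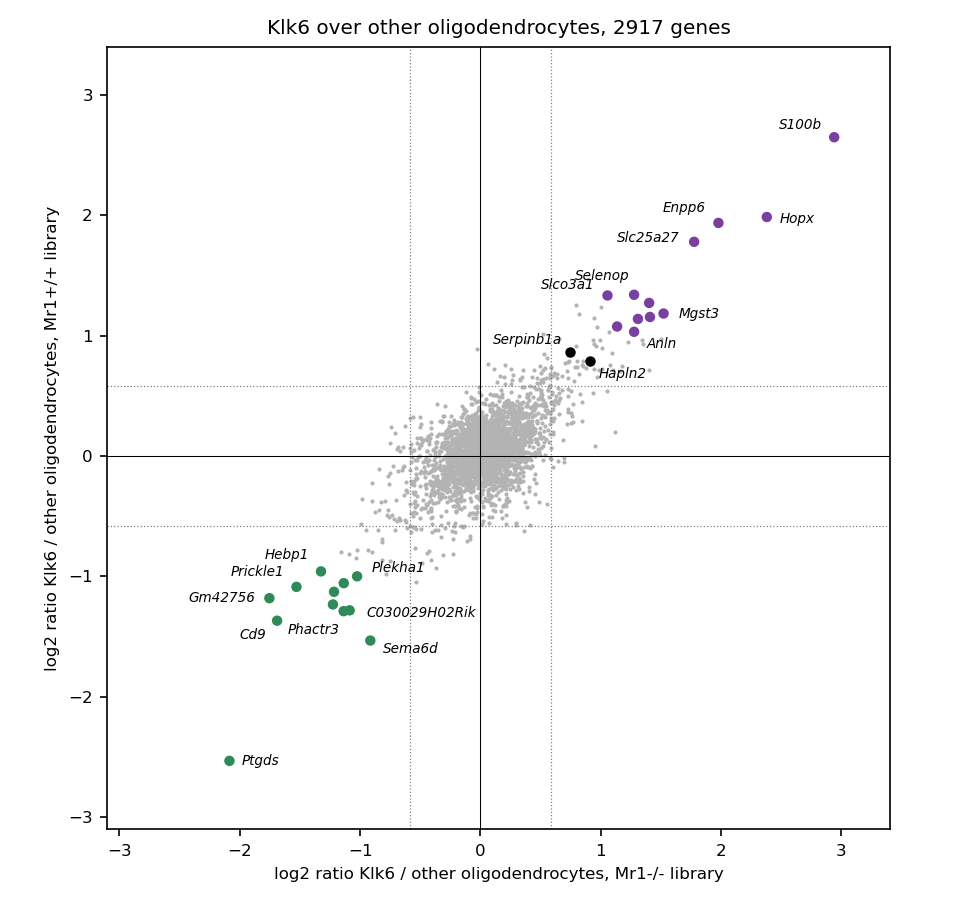
Log2 ratio of CPM (after adding 10 CPM) in Klk6 over other oligodendrocytes, Mr1-/- library on the x axis and Mr1+/+ library on the y axis. Each dot is 1 of 2917 genes, with the 12 highest in purple, the 12 lowest in green, Hapln2 and Serpinb1a in black, and dotted lines at 1.5-fold; S100b lies farthest to the upper right and Ptgds to the lower left.

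The promoters of the defining gene, of a further marker and of the genes with the highest and lowest ratios are printed so that their sequence can be read beside these levels. They are the 250 bases before the RefSeq start site in GRCm38.p6, written 5' to 3' on the gene's strand. Capitals mark matches on either strand to 3 short motifs, the SOX core ACAAAG, the E-box CAGCTG and the GC box GGGCGG, read as CCGCCC from the other strand; no match overlaps another.
Klk6, first of 2 start sites, chr7:43824294-43824543, plus strand: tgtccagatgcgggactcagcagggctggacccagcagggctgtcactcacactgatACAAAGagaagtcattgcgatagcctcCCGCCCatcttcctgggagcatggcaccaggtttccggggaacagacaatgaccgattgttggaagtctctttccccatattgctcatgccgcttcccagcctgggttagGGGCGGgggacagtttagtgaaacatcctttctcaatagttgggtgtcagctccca
Anln, chr9:22389207-22389456, minus strand: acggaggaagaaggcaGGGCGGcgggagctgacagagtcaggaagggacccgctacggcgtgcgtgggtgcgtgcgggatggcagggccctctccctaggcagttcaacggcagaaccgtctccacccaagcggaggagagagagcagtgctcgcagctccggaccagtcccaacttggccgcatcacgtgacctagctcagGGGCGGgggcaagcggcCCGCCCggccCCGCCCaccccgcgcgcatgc
S100b, chr10:76253586-76253835, plus strand: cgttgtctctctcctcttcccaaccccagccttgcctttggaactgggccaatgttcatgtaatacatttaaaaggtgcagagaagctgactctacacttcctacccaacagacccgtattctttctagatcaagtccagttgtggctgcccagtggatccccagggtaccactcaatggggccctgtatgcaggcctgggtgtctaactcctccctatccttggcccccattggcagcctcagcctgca
Ptgds, chr2:25469750-25469999, minus strand: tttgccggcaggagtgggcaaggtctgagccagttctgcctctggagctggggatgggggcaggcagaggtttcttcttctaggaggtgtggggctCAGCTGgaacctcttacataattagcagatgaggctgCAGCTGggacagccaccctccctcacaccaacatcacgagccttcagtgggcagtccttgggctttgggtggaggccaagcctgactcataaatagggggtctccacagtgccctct
The Klk6 window held 1 SOX core and 2 GC boxes, the Anln window 4 GC boxes, and the Ptgds window 2 E-boxes. The S100b window held none of these letters, nor did any of the 4 hold the TATA box TATAAA. Of 32851 promoter windows of the same length, 16.5% held the SOX core, 13.0% the E-box, 32.7% the GC box and 12.4% the TATA box, so single matches are common.

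The 8 oligodendrocyte genes used to choose the cells differed in how they stood in the Klk6 cells, which the rule did not fix beyond detection. Opalin, a membrane glycoprotein of the inner myelin loops, stood at 206 CPM in Mr1-/- and 300 CPM in Mr1+/+ Klk6 oligodendrocytes, against 952 and 856 CPM in the other oligodendrocytes, 0.216 and 0.351 of their level. Mal, a raft-associated myelin proteolipid, stood at 5348 and 6127 CPM, against 8213 and 7999 CPM. The remaining 6 lay between 0.951 and 1.22 of the other oligodendrocytes in both libraries, among them Mog (1.02 and 1.20) and Cldn11 (0.972 and 0.989). Opalin was thus the only one of the 8 past 1.5-fold in both libraries.

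Several of these levels differed with the number of Klk6 UMIs in a cell. In the Mr1-/- library S100b stood at 136, 838, 975 and 1577 CPM in oligodendrocytes with 0, 1, 2 and 3 or more Klk6 UMIs. In the Mr1+/+ library the same bins gave 153, 606, 1043 and 1404 CPM. Hopx followed the same order, with 49.0, 229, 273 and 406 CPM (Mr1-/-) and 55.0, 171, 220 and 334 CPM (Mr1+/+). Ptgds ran the other way, with 22890, 6470, 6686 and 3026 CPM (Mr1-/-) and 18980, 6208, 2514 and 580 CPM (Mr1+/+). Il33 stood at 1492, 749, 682 and 451 CPM (Mr1-/-) and at 1498, 877, 845 and 431 CPM (Mr1+/+). In CPM, the step between 0 and 1 UMI was the largest of the 3 steps for these 4 genes in both libraries. Mbp, myelin basic protein, stood between 5960 and 7191 CPM in all bins of both libraries. The median depth was also higher in the upper bins, at 4170, 5856, 6713 and 6776 UMIs (Mr1-/-) and 4356, 6252, 7001 and 7024 UMIs (Mr1+/+); its part in these steps was not tested.

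**Figure D3:**
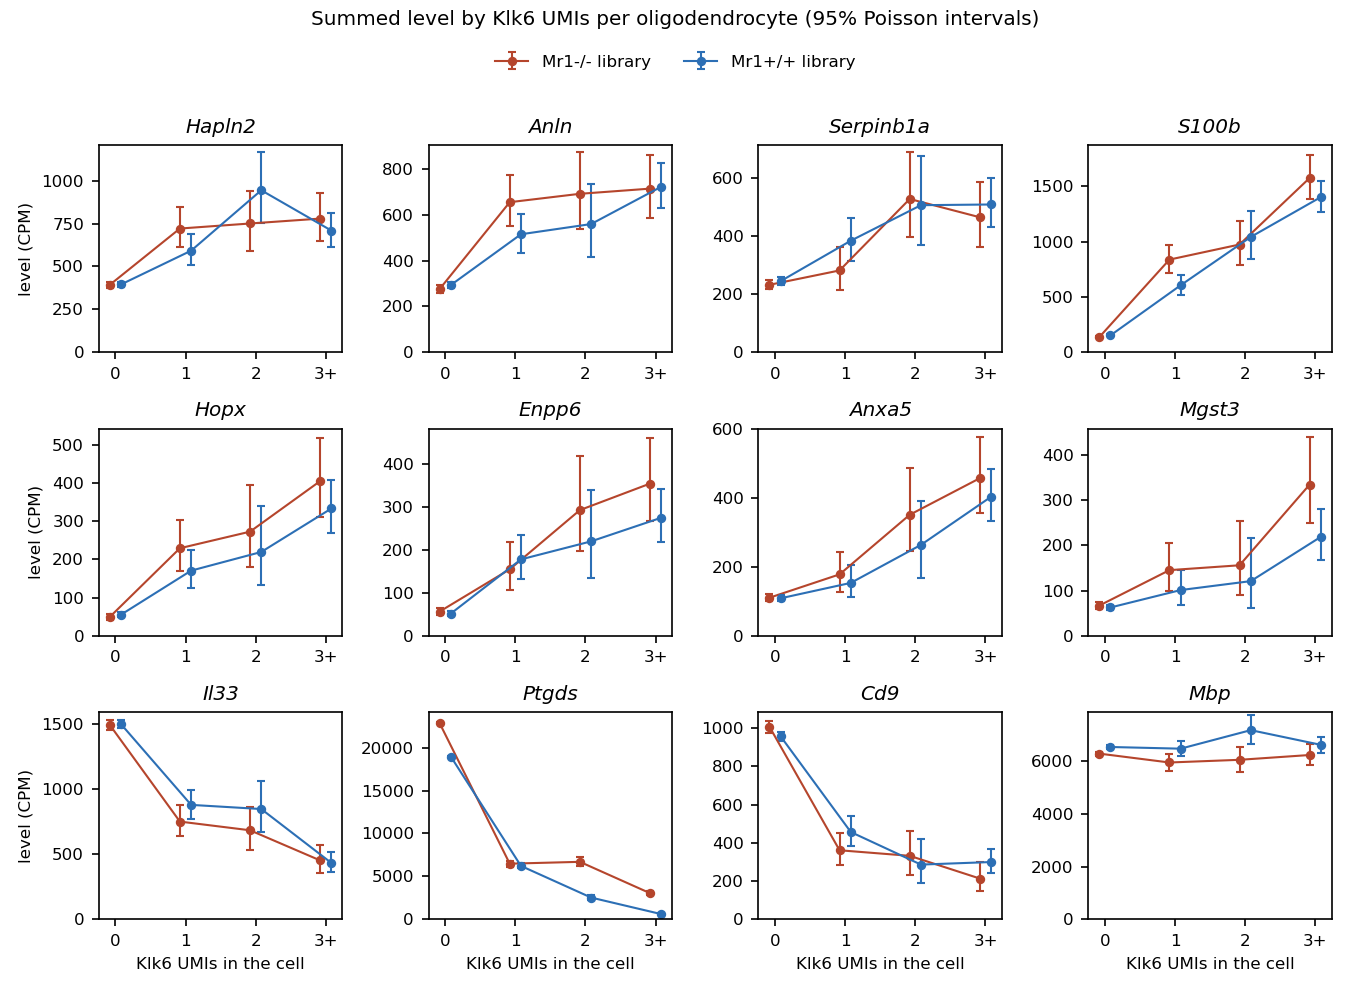
Level in CPM (y axis, each panel on its own scale) of 12 genes in oligodendrocytes with 0, 1, 2 and 3 or more Klk6 UMIs (x axis) in the Mr1-/- and the Mr1+/+ library, with exact 95% Poisson intervals. S100b and Hopx are higher and Ptgds, Il33 and Cd9 lower in the bins with Klk6, and Mbp differs by less, between 5960 and 7191 CPM.

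Depth was set equal by drawing 1500 UMIs from every cell, which left out 12 Mr1-/- and 130 Mr1+/+ of the other oligodendrocytes as too shallow and none of the Klk6 cells. At that depth S100b was detected in 75.0% of Mr1-/- and 61.5% of Mr1+/+ Klk6 oligodendrocytes, against 9.64% and 12.5% of the other oligodendrocytes. Before thinning the shares were 87.5% and 89.6%, against 20.9% and 21.8%. Hopx was detected in 30.6% and 35.4% of the thinned Klk6 cells, against 5.20% and 6.26%, and Enpp6 in 38.9% and 28.1%, against 7.91% and 5.95%. Selenop was the gene of this set found in most Klk6 cells, with 87.5% and 88.5%, against 47.9% and 47.5%. The genes with lower levels kept their direction too. Ptgds was detected in 56.9% and 58.3% of the thinned Klk6 cells, against 96.5% and 95.9%, and Cd9 in 34.7% and 35.4%, against 71.7% and 70.7%. Hapln2 was detected in 68.1% and 56.3%, against 41.0% and 41.5%, and Serpinb1a in 44.4% and 55.2%, against 23.6% and 28.0%, gaps that were smaller than that of S100b.

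**Figure D4:**
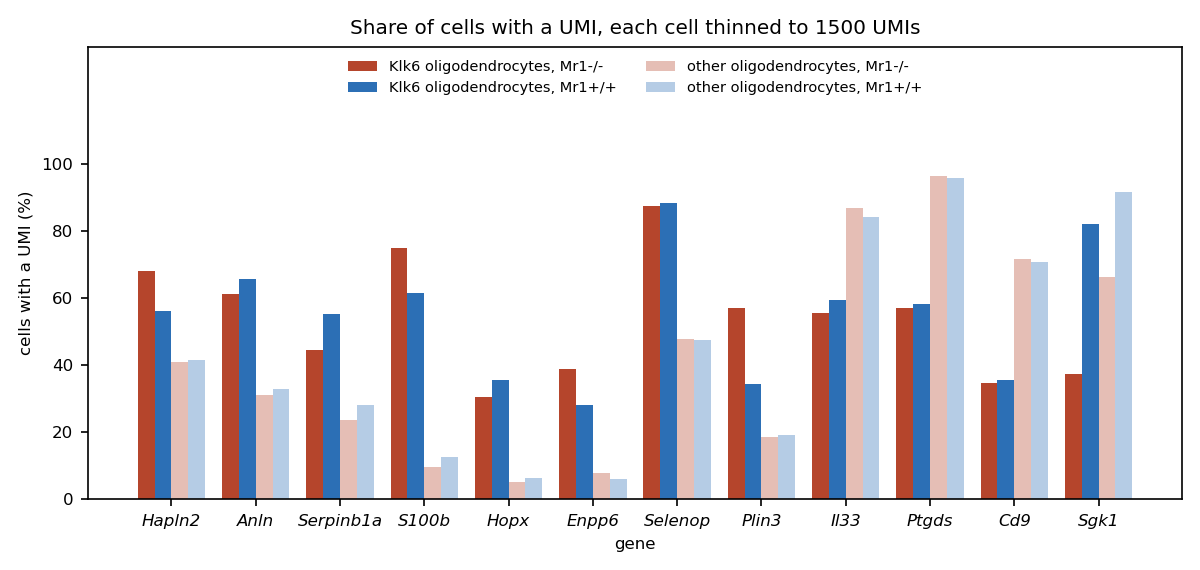
Share of cells (%, y axis) with a UMI of 12 genes after thinning every cell to 1500 UMIs, dark bars for Klk6 and pale bars for other oligodendrocytes, Mr1-/- and Mr1+/+ library. S100b is found in 75.0% and 61.5% of the Klk6 cells, against 9.64% and 12.5% of the other oligodendrocytes, and Ptgds in 56.9% and 58.3%, against 96.5% and 95.9%.

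Transcripts of other cell types were present in some Klk6 cells. The rule let each cell hold UMIs of at most 2 of its 6 other-cell genes, and 59 of 72 Mr1-/- and 87 of 96 Mr1+/+ cells had none of them. C1qa, the microglial complement gene, had 99 UMIs in the Mr1-/- and 115 in the Mr1+/+ cells, of which 81 and 114 came from a single cell. Over 7 microglial genes the summed level was 1232 and 1048 CPM, against 704 and 1026 CPM in the other oligodendrocytes, and 5 of the 7 were higher in both libraries. Over 7 endothelial genes it was 299 and 149 CPM, against 252 and 330 CPM, and over 7 astrocyte genes 235 and 134 CPM, against 214 and 322 CPM. Over 7 mural genes it was 0 and 589 CPM, against 318 and 467 CPM. Over 7 neuronal genes it was 161 and 180 CPM, against 102 and 120 CPM, with 5 of the 7 at 0 UMIs in the Klk6 cells, Snap25 and Rbfox3 among them. Nearly all of that sum was Tubb3, a neuronal tubulin, found in 38 of 72 Mr1-/- and 45 of 96 Mr1+/+ Klk6 cells. It stood at 161 and 179 CPM, against 88.4 and 103 CPM in the other oligodendrocytes. Slc1a3 was found in 23 and 34 of the Klk6 cells. The part of these transcripts in the comparisons was not tested. With none of the 6 other-cell genes allowed, 146 Klk6 oligodendrocytes were left (59 Mr1-/- and 87 Mr1+/+), and all 24 genes named above kept their direction.

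The Klk6 oligodendrocytes were also described by lists of genes chosen for oligodendrocyte biology, counting members with at least 30 UMIs over the groups compared. Over all 2917 genes the median log2 ratio of Klk6 over other oligodendrocytes was 0.04 (Mr1-/- library) and 0.05 (Mr1+/+ library), and 40.2% of the genes were higher and 25.3% lower in both libraries by any amount. Of the 8 genes listed for the Klk6 subtype, Klk6 itself included, 7 were at least 1.5-fold higher in both libraries and Cd9 was lower. Of all genes compared, 2.23% were that much higher. The rule fixed the direction of Klk6, and the list was chosen with earlier results of these data known, so this count is no check of the label. Of the 9 genes listed for the Il33 subtype, Il33 and Ptgds were at least 1.5-fold lower. Apod, the lipocalin apolipoprotein D, is on the same list and stood at 3752 CPM in Mr1-/- and 3124 CPM in Mr1+/+ Klk6 cells, against 1753 and 1721 CPM in the other oligodendrocytes. Among 19 myelin protein genes 9 were higher and 8 lower in both libraries, and only Opalin passed 1.5-fold; Mbp had ratios of 0.965 and 1.02. Among 11 transcription factors of the lineage 2 were higher and 8 lower in both libraries, none past 1.5-fold, with Olig2 at 0.676 and 0.642 of the other oligodendrocytes.

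Genes of myelin lipid synthesis had medians above that of all genes. Of 19 genes of cholesterol synthesis 12 were higher and 1 lower in both libraries, with median log2 ratios of 0.19 (Mr1-/- library) and 0.43 (Mr1+/+ library). Sqle, squalene epoxidase, was the only one past 1.5-fold, at 44.5 CPM in Mr1-/- and 42.0 CPM in Mr1+/+ Klk6 cells, against 22.5 and 24.4 CPM in the other oligodendrocytes. Of 15 genes of sphingolipid and fatty acid synthesis 9 were higher and 2 lower in both libraries, with medians of 0.16 and 0.26 and none past 1.5-fold. Cytosolic ribosomal protein genes lay on the other side, with 2 of 78 higher and 58 lower in both libraries and medians of -0.11 and -0.13. Mitochondrially encoded genes were similar, with 0 of 13 higher and 12 lower in both libraries.

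Markers of less mature cells did not follow Enpp6. Of 10 genes listed for premyelinating oligodendrocytes 6 had enough UMIs, and Enpp6 was the only one higher in both libraries, with medians of 0.02 and -0.13. Of 7 genes of oligodendrocyte precursors 2 had enough UMIs. Pdgfra, the defining receptor, had 0 UMIs in the Klk6 cells, and 0 (Mr1-/-) and 1 (Mr1+/+) in the other oligodendrocytes. Apart from Klk6, no other kallikrein on the list had enough UMIs to be counted except Klk8, at 3 UMIs in the Klk6 cells of each library. Among 9 protease inhibitors Serpind1, heparin cofactor II, stood at 50.9 CPM in Mr1-/- and 67.6 CPM in Mr1+/+ Klk6 cells, against 13.7 and 18.6 CPM in the other oligodendrocytes. Timp2, an inhibitor of matrix metalloproteinases, was lower, at 0.539 and 0.639 of their level.

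Channels and energy metabolism gave single genes rather than whole lists. Gjb1, the gap junction protein connexin 32 of myelin, stood at 910 CPM in Mr1-/- and 821 CPM in Mr1+/+ Klk6 oligodendrocytes, against 547 and 474 CPM in the other oligodendrocytes. Of the 7 connexin and potassium channel genes 3 were higher and 3 lower in both libraries, and Kcna2, a voltage-gated channel, was below 10 CPM in the Klk6 cells. Ldhb, a lactate dehydrogenase subunit, stood at 350 and 272 CPM, against 131 and 138 CPM, while 6 of 17 glycolysis and lactate genes were higher and 7 lower in both libraries. Of 7 genes of septins and anillin, only Anln passed 1.5-fold. Of 9 genes of iron handling 4 were higher and 4 lower in both libraries and none passed 1.5-fold. Of 15 glucocorticoid-responsive genes 3 were higher and 9 lower in both libraries, with Sgk1 and the metallothioneins Mt1 and Mt2 past 1.5-fold. Of 14 heat shock genes 2 were higher and 9 lower, none past 1.5-fold.

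Most of the other oligodendrocytes carried Il33, 913 of 935 in the Mr1-/- and 1357 of 1424 in the Mr1+/+ library. Set against these Il33 cells alone, 67 genes (2.3%) were at least 1.5-fold higher and 28 (0.96%) at least 1.5-fold lower in the Klk6 oligodendrocytes of both libraries, again as a description. The Klk6 cells and nearly all of the cells they were set against are the same as in the comparison with all other oligodendrocytes.

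Between genotypes, the share of oligodendrocytes with Klk6 differed by less than its counting error. It was 0.834 percentage points higher in the Mr1-/- library (interval of the difference -1.13 to 2.92), with 72 of 1007 Mr1-/- and 96 of 1520 Mr1+/+ oligodendrocytes. After every cell was thinned to 1500 UMIs the share was 2.81% (28 of 995) in the Mr1-/- and 3.38% (47 of 1390) in the Mr1+/+ library, a difference of -0.567 points (-1.95 to 0.910). The sign of the difference thus turned after thinning, but both intervals hold 0. Without thinning, and with none of the 6 other-cell genes allowed, the difference was -0.031 points (-2.09 to 2.15). Oligodendrocytes made up 19.1% of the kept Mr1-/- and 24.0% of the kept Mr1+/+ cells, after a dissociation and a sort that can set such shares.

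For most markers of the Klk6 subtype no difference between genotypes was detectable beyond counting error. Klk6 itself was at 467 CPM in Mr1-/- and 416 CPM in Mr1+/+ cells, a ratio of 1.12 (0.936 to 1.34). The ratios were 1.08 (0.938 to 1.24) for Hapln2, 1.12 (0.963 to 1.30) for Anln, 0.870 (0.721 to 1.05) for Serpinb1a and 1.10 (0.979 to 1.24) for S100b. These 5 intervals hold 1. Of the other 3 genes on the list of this subtype, Mgst3 stood at 210 CPM in Mr1-/- and 155 CPM in Mr1+/+ Klk6 cells, a ratio of 1.36 (1.02 to 1.81), with an interval apart from 1. Ptgds and Opalin, both low in the Klk6 cells, had intervals apart from 1. Ptgds stood at 5382 CPM in Mr1-/- and 3272 CPM in Mr1+/+ Klk6 oligodendrocytes, a ratio of 1.65 (1.55 to 1.74), and at 1.21 in the other oligodendrocytes. Opalin stood at 206 and 300 CPM, a ratio of 0.685 (0.532 to 0.877), and at 1.11 in the other oligodendrocytes. Ptgds UMIs are concentrated in few Klk6 cells, as given above, so its interval for counting error is narrower than the variation between cells.

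Across 2965 genes, 38 (1.28%) were at least 1.5-fold higher and 74 (2.5%) at least 1.5-fold lower in Mr1-/- than in Mr1+/+ Klk6 oligodendrocytes. In the other oligodendrocytes of the same libraries the counts were 2 of 2866 higher (0.0698%) and 14 lower (0.488%). The Klk6 groups hold far fewer UMIs, 471543 (Mr1-/-) and 666037 (Mr1+/+), and counting error alone is wider there; its part in the larger counts was not tested. Of the 38 higher genes 32 had an interval apart from 1, and of the 74 lower genes 62. These genes were called from the same counts, so the intervals are no separate check. The calls depended on the settings: after thinning to 1500 UMIs 75 genes were higher, with 4 of the 38 among them, and with 50 CPM added in place of 10 only 4 were higher and 9 lower. In the other oligodendrocytes 22 of the 38 were higher at all and 1 past 1.5-fold. Of the 74, 58 were lower at all there and 7 past 1.5-fold. Over all genes the median log2 ratio was -0.01 in both kinds of cell, with 48.7% higher and 51.3% lower at all in the Klk6 cells. These shares were not counted for all genes in the other oligodendrocytes, so the overlaps are not read as agreement.

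Sgk1, the serum- and glucocorticoid-inducible kinase, had the lowest ratio between genotypes. It stood at 416 CPM in Mr1-/- and 1236 CPM in Mr1+/+ Klk6 oligodendrocytes, a ratio of 0.336 (0.286 to 0.394), with UMIs in 59 of 72 and 94 of 96 cells. In the other oligodendrocytes it stood at 938 and 2151 CPM, a ratio of 0.436. Sgk1 was thus lower in Mr1-/- cells of both kinds, and lower in Klk6 than in other oligodendrocytes of both libraries. Sys1, a Golgi membrane protein, stood at 76.4 CPM in Mr1-/- and 206 CPM in Mr1+/+ Klk6 cells, and at 37.7 and 118 CPM in the other oligodendrocytes; it overlaps a read-through gene, Gm20458, on its strand. Polr3e, a subunit of RNA polymerase III, stood at 221 and 402 CPM, and at 224 and 475 CPM in the other oligodendrocytes. Ddit4, an inhibitor of mTORC1 signalling, stood at 142 and 302 CPM, and at 223 and 352 CPM in the other oligodendrocytes. These 4 genes were lower in the Mr1-/- cells whether or not the cells carried Klk6.

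The remaining named genes with lower levels in Mr1-/- Klk6 cells rest on fewer UMIs. Rb1cc1, an autophagy initiation factor, stood at 33.9 CPM in Mr1-/- and 79.6 CPM in Mr1+/+ Klk6 cells (16 and 53 UMIs), while its ratio in the other oligodendrocytes was 0.966. Sar1a and Jagn1, which act in the early secretory pathway, had ratios of 0.486 and 0.494 in the Klk6 cells, and of 1.001 and 1.003 in the other oligodendrocytes. Stim1, the calcium sensor of the endoplasmic reticulum, Rabggtb, a subunit of the enzyme that prenylates Rab proteins, and Cdc26, a subunit of the anaphase-promoting complex, had ratios between 0.50 and 0.52. Galnt7, which starts or extends mucin-type sugar chains, and 9330159F19Rik had ratios of 0.471 and 0.426, and of 0.721 and 0.626 in the other oligodendrocytes. The 12 lowest genes had intervals below 1 in the Klk6 cells. They were picked by these same counts, so those intervals are no separate check. In the other oligodendrocytes, by which they were not picked, the intervals of 6 of them held 1. The difference between the 2 kinds of cell was not tested for these genes, and the log2 ratio turned to 0.35 for Stim1 after thinning and to 0.58 for Rabggtb without the Klk6 cells that carried Il33.

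The 12 genes with the highest ratios between genotypes rest on 20 to 68 UMIs per library. Mindy3, a deubiquitinase, stood at 76.4 CPM in Mr1-/- and 30.03 CPM in Mr1+/+ Klk6 oligodendrocytes, a ratio of 2.54 (1.43 to 4.64), and its ratio in the other oligodendrocytes was 1.11. Snhg20, a small nucleolar RNA host transcript, stood at 125 and 61.6 CPM, Spr, sepiapterin reductase of tetrahydrobiopterin synthesis, at 117 and 64.6 CPM, and Rbm3, a cold-inducible RNA-binding protein, at 144 and 82.6 CPM. Srp72 of the signal recognition particle, the mitochondrial ribosomal protein gene Mrpl32, the RNA-binding protein gene Pum2 and Cttnbp2, a cortactin-binding protein gene, had ratios between 1.90 and 2.12. Adprh, an ADP-ribosylhydrolase, Tmem192 of the lysosomal membrane, Cnpy3, a chaperone of Toll-like receptors, and Wls, the Wnt sorting receptor, had ratios between 1.77 and 1.86. These 12 genes were picked by their ratio in the Klk6 cells, and the difference between the 2 kinds of cell was not tested. For 11 of the 12 the interval in the other oligodendrocytes held 1, and for Pum2 it lay below 1, with a ratio of 0.781. Without the Klk6 cells that carried Il33 the log2 ratio turned to -0.37 for Tmem192 and -0.43 for Rbm3.

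**Figure D5:**
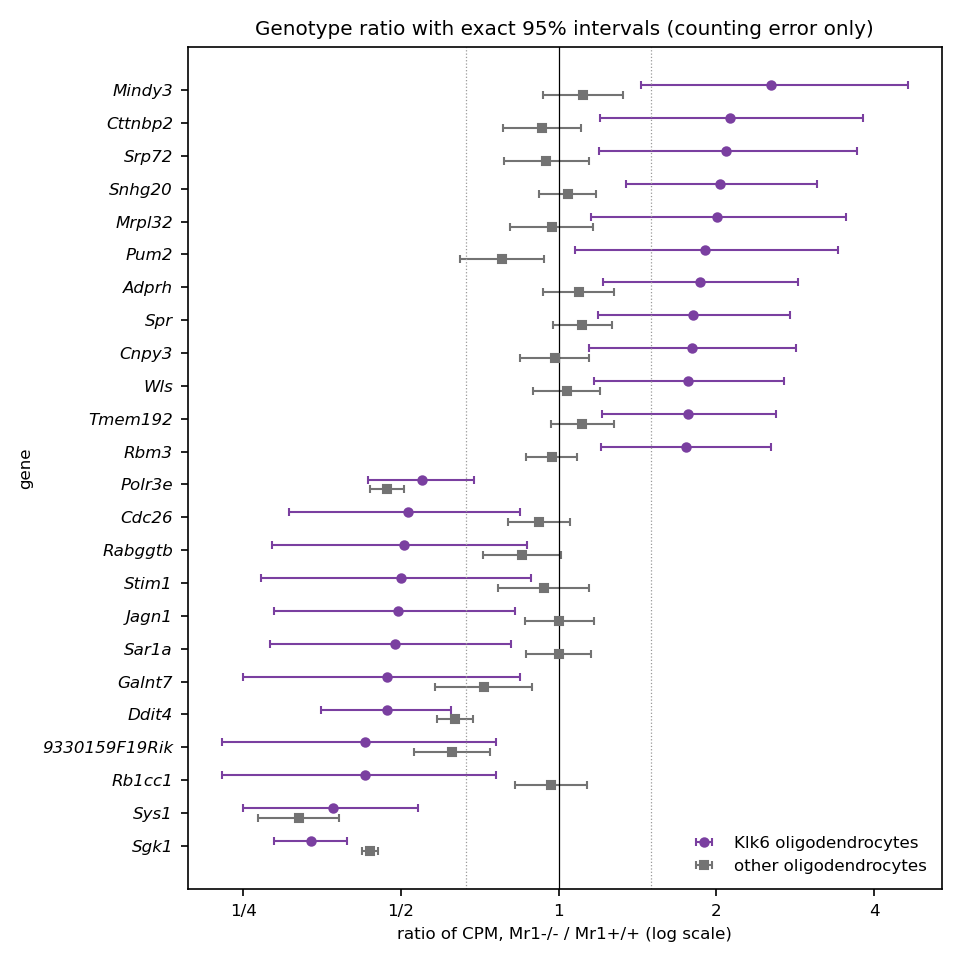
Ratio of CPM in Mr1-/- over Mr1+/+ cells (log2 axis) for the 12 genes with the highest and the 12 with the lowest ratio in Klk6 oligodendrocytes, in Klk6 (purple circles) and other oligodendrocytes (grey squares), with 95% counting intervals and dotted lines at 1.5-fold. Sgk1, Sys1, Polr3e and Ddit4 lie below 1 in both kinds of cell, and most squares of the other genes lie near 1.

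Several genes listed as glucocorticoid-responsive were lower in the Mr1-/- Klk6 oligodendrocytes. Of 9 with enough UMIs in the Klk6 oligodendrocytes 2 were higher and 7 lower in the Mr1-/- cells. Past 1.5-fold were 5 of the lower genes (Sgk1, Ddit4, Cdkn1a, Per1 and Klf9), where 2.5% of all genes were that much lower. Tsc22d3 and Nr3c1, the remaining lower genes, had ratios of 0.948 (0.641 to 1.39) and 0.946 (0.684 to 1.30). The higher genes Mt1 and Glul had ratios of 1.06 (0.912 to 1.24) and 1.01 (0.945 to 1.07), so the intervals of all of these held 1. Cdkn1a, a cell cycle inhibitor gene, rests on 7 Mr1-/- and 30 Mr1+/+ UMIs in 4 and 12 cells, and the ratio of the clock gene Per1, 0.530, had an interval that held 1 (0.217 to 1.18). The median log2 ratio of this list was -0.66 in the Klk6 cells and -0.58 in the other oligodendrocytes, beside -0.01 over all genes in both kinds of cell. Over the 16 other settings it lay between -1.32 and -0.25 in the Klk6 cells. Klf9, a transcription factor that glucocorticoid and thyroid hormone induce, stood at 117 CPM in Mr1-/- and 201 CPM in Mr1+/+ Klk6 cells. Of 12 heat shock genes 1 was higher in the Mr1-/- Klk6 cells and 11 lower, with a median of -0.13, beside -0.28 in the other oligodendrocytes. The co-chaperone gene Dnajb1 was past 1.5-fold in the Klk6 cells, with a ratio of 0.532, and had a ratio of 0.609 in the other oligodendrocytes. Hspb1, a small heat shock protein gene, also passed 1.5-fold, but its 17 Mr1-/- and 53 Mr1+/+ UMIs lay in 2 and 6 Klk6 cells, in groups whose summed mural genes stood at 0 and 589 CPM; their part was not tested. Of 14 cholesterol synthesis genes 3 were higher and 11 lower, with a median of -0.15, beside 0.05 in the other oligodendrocytes; Idi1, isopentenyl-diphosphate isomerase, was past 1.5-fold, at 50.9 CPM in Mr1-/- and 90.1 CPM in Mr1+/+ cells.

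The lists of myelin protein and cytosolic ribosomal protein genes lay closer to the median of all genes than the glucocorticoid, heat shock and cholesterol lists. The medians of the sphingolipid and fatty acid list and of the Klk6 subtype list were not closer than that of the heat shock list. Of all genes, 48.7% were higher and 51.3% lower in Mr1-/- Klk6 cells by any amount. Of 19 myelin protein genes 6 were higher and 13 lower in Mr1-/- Klk6 cells, with a median of -0.08 and none past 1.5-fold. Of 15 genes of sphingolipid and fatty acid synthesis 4 were higher and 11 lower, with a median of -0.14 and none past 1.5-fold. Of 78 cytosolic ribosomal protein genes 43 were higher and 35 lower, with a median of 0.01. Of the 8 genes of the Klk6 subtype 6 were higher and 2 lower, with a median of 0.14 and none past 1.5-fold. MHC class I genes were barely captured in the Klk6 oligodendrocytes. H2-D1, a classical class I heavy chain, and B2m, the light chain that MR1 also binds, were the only 2 of 13 with 30 UMIs over both libraries, and both were higher in the Mr1-/- cells. H2-D1 stood at 63.6 CPM in Mr1-/- and 30.03 CPM in Mr1+/+ cells (30 and 20 UMIs), and its reads can be shared with near-identical class I genes. B2m stood at 53.0 and 21.0 CPM (25 and 14 UMIs). Endothelial cells are rich in class I transcripts, and the summed level of 7 endothelial genes was 299 CPM in Mr1-/- and 149 CPM in Mr1+/+ Klk6 oligodendrocytes; its part in these 2 differences was not tested.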

How the data were processed

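The authors deposited raw UMI counts per gene and barcode as filtered matrices. Per the file headers these came from Cell Ranger 3.1.0; per the submitters' processing notes, from Cell Ranger 5.1.0 with STAR on mm10. Of 31053 gene rows, 30934 were found by ID in GENCODE M21 (GRCm38), which gave positions; promoter sequences came from RefSeq (GRCm38.p6). The smallest deposited barcode held 501 UMIs.

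The membership rule was read as numbers of genes detected. UMIs were summed per library and group and divided by the group's total as CPM. A gene was compared if it averaged at least 50 CPM and had at least 30 UMIs over the groups, and if in one group it reached 0.2 times its CPM in the marked class (endothelial, mural, astrocyte, microglia, neuron; at least 3 markers and at most 2 oligodendrocyte genes) where it was highest. Genes of the membership rule, mitochondrially encoded, ribosomal protein and haemoglobin genes, Xist, Tsix and 4 Y-linked genes were left out of these comparisons. Calls needed a ratio of 1.5 after adding 10 CPM. The genes named are the 12 highest and 12 lowest of each comparison by that ratio, for Klk6 against other cells by the library nearer to 1, the marker and rule genes, and the most abundant or most different members of each list; the 3-gene group S100b, Hopx and Enpp6 and the other genes named were chosen after their values were seen. The members and gene lists were chosen with earlier results of these data known.

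Intervals were exact Poisson, exact binomial (Clopper-Pearson), conditional binomial for ratios and Newcombe for differences of shares; UMIs of 1 cell are not independent, so they cover counting error only. A share of 0 allows 3 counts of the total. No p-value was computed, since each genotype is 1 library. Doublets were called with Scrublet in scanpy 1.11.5 (expected rate 0.05), which marked 173 of 5278 Mr1-/- and 343 of 6327 Mr1+/+ cells; they were kept, and left out in an alternative. Other alternatives changed the Klk6 and mitochondrial limits, the depth, the scaling, the added CPM and the filters. The scripts were tested on simulated data and ran in Python 3.11.15 with NumPy 2.4.6, SciPy 1.17.1, pandas 2.3.3, statsmodels 0.14.6 and matplotlib 3.10.9.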

Additional observations from a re-analysis of the deposited data

Results flagged for a closer look

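For 5 genes the genotypes differed in opposite directions in Klk6 and other oligodendrocytes, each with an interval apart from 1. They were picked for this pattern, while 2965 genes were compared in the Klk6 and 2866 in the other oligodendrocytes. These differences between the 2 kinds of cell were not tested. On the log2 scale the ratio of Mr1-/- over Mr1+/+ was 0.65 in Klk6 and -0.26 in other oligodendrocytes for Dusp3, a dual-specificity phosphatase, 0.43 and -0.16 for Glrb, the beta subunit of the glycine receptor, and 0.31 and -0.11 for Aplp2, an amyloid precursor-like protein. It was -0.52 and 0.16 for Mpst, a mercaptopyruvate sulfurtransferase, and -0.38 and 0.17 for Arl2, a small GTPase of tubulin folding. Dusp3 stood at 140 CPM in Mr1-/- and 85.6 CPM in Mr1+/+ Klk6 oligodendrocytes, and at 59.2 and 73.0 CPM in the other oligodendrocytes.

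For 2 genes the Klk6 cells differed from the other oligodendrocytes in opposite directions in the libraries, which was not tested either. They too were picked for this pattern, while 2917 genes were compared. The log2 ratio of Klk6 over other oligodendrocytes was -0.51 in the Mr1-/- and 0.32 in the Mr1+/+ library for Tmcc2, and -0.35 and 0.19 for AY036118, which overlaps Gm42418.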

How the results depend on the processing

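No paired analysis was possible because each genotype is 1 library. Under 16 other settings, 2 of them chosen after seeing the data, the 24 genes named for Klk6 over other oligodendrocytes kept their direction. Counts of genes moved by over 1.5 times in 7 settings, given here as higher and lower in Klk6 over other oligodendrocytes (65 and 27), over Il33 oligodendrocytes (67 and 28), and in Mr1-/- over Mr1+/+ Klk6 cells (38 and 74), naming those that moved. With 2 or more Klk6 UMIs (37 Mr1-/- and 51 Mr1+/+ cells) the lower counts were 48 and 49, and between genotypes 114 and 132. Thinned to 1500 UMIs, the lower counts were 49 and 51, and 75 genes were higher between genotypes. With Il33-carrying cells left out (12 and 13 cells) the counts were 141 and 93, 143 and 95, and 99 higher between genotypes. With 1 CPM added 58 were higher between genotypes; with 50 CPM added the higher counts were 38 and 41, and between genotypes 4 and 9. With no filter on low values they were 148 and 81, 151 and 85, and 504 and 597. With at least 5000 UMIs, chosen after seeing the data, the lower counts were 17 and 16 and the share of Klk6 cells was 4.11 points higher in the Mr1-/- library (19.8% and 15.7%; interval -1.17 to 9.75). Of the log2 ratios between genotypes, Stim1 reversed to 0.35 when thinned, and Tmem192 to -0.37, Rbm3 to -0.43 and Rabggtb to 0.58 without Il33-carrying cells; the cause was not tested. The glucocorticoid list's median between genotypes (-0.66) was -0.36 with summed UMIs in the membership rule, -0.25 with 2 or more Klk6 UMIs and without doublets, -0.32 with 50 CPM added, -0.33 without cells holding any of the 6 other-cell genes (chosen after seeing the data) and -1.32 without Il33-carrying cells. Of the 38 genes higher between genotypes, 4 remained when thinned and 26 with 2 or more Klk6 UMIs. At this depth a gene under about 30 UMIs over both libraries was not compared.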

Other observations

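S100b, Hopx and Enpp6, a group chosen after their values were seen, were also found together in some cells that carried no Klk6 UMI. UMIs of all 3 were found in 34 of 72 Mr1-/- and 52 of 96 Mr1+/+ Klk6 oligodendrocytes (47.2% and 54.2%), against 38 of 935 and 65 of 1424 of the other oligodendrocytes (4.06% and 4.57%). The genes below were not used to pick the 38 and 65 cells without Klk6. They had already differed between Klk6 and other oligodendrocytes, so their levels are no separate check. For these genes the 38 and 65 cells stood nearer to the Klk6 cells with all 3 genes than to cells with none. Hapln2 stood at 683 CPM (Mr1-/-) and 643 CPM (Mr1+/+) in them, against 321 and 331 CPM in the 634 and 977 cells with none of the 3 genes and no Klk6. Anln stood at 589 and 654 CPM, against 196 and 210 CPM. Ptgds stood at 4824 and 2778 CPM, against 27750 and 23310 CPM, and Cd9 at 330 and 317 CPM, against 1206 and 1128 CPM. Their levels were still not those of the Klk6 cells with all 3 genes, which had 2864 and 959 CPM of Ptgds. Opalin stood at 386 and 362 CPM in the cells without Klk6, against 174 and 172 CPM in those Klk6 cells. Il33 stood at 923 and 804 CPM, against 577 and 627 CPM. The cells with all 3 genes were deeper, with median depths of 5341 and 6655 UMIs against 3925 and 4046; the part of depth was not tested.

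The Klk6 cells themselves also differed by these 3 genes. The 34 Mr1-/- and 52 Mr1+/+ Klk6 cells with all 3 had 2864 and 959 CPM of Ptgds and 174 and 172 CPM of Opalin. The 3 Mr1-/- and 6 Mr1+/+ Klk6 cells with none of them had 16040 and 17390 CPM of Ptgds and 537 and 860 CPM of Opalin. In these few cells the Ptgds levels rest on 239 and 445 UMIs and the Opalin levels on 8 and 22 UMIs. Their median depths were 5584 and 5011 UMIs, against 6592 and 6554 in the Klk6 cells with all 3, and the part of depth was not tested.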
